A study of Mus musculus with 12 samples.

Results

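Alternative transcript ends are the last exons with which transcripts of 1 gene finish at different places or after different splice junctions. The 440 genes described here carried 1029 such ends, of 13403 loci and 19091 ends listed in any library of the study. A gene was taken where the FPKM of its ends summed to at least 5 in all 12 libraries and at least 2 of its ends each reached 1 FPKM in 3 or more libraries. FPKM normalise fragment numbers to transcript length and library size, and the share of an end is its FPKM as a percentage of the summed ends of its gene. The members were thus chosen by the FPKM of their ends in these same libraries. At the edges of the rule, the lowest summed end of a member in any library was 5.01 FPKM and the highest minimum left out was 4.99 FPKM. The 3rd highest FPKM of an end was 1.002 or more among those kept and 0.999 or less among those left out.

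The 12 libraries hold poly(A) RNA of splenic CD4 T cells of the mouse, 3 for each of 4 groups. These are KIKO cells activated for 16 h with bead-bound antibodies to CD3 and CD28, KI cells activated in the same way, naive KIKO cells and naive KI cells. The labels give the genotypes only as KI and KIKO, name no allele, strain or age, and leave CD4 out of the titles of the activated KIKO samples, where the summed ends of Cd4 averaged 107 FPKM. Nothing in them says that the samples of a group came from separate animals, so the p-values measure only the spread between these samples, and in bulk RNA fewer cells of a type and less RNA per cell cannot be told apart.

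A messenger RNA ends where the cleavage and polyadenylation machinery cuts the nascent transcript and adds a poly(A) tail, usually a short distance downstream of an AAUAAA or AUUAAA hexamer. Many genes hold several such sites, and using an earlier one, or splicing to another last exon, changes the coding end or the untranslated region of the message. T cells that are stimulated and begin to divide are a classic setting in which messages with shortened untranslated regions have been described. In these files an end is a last exon with its own splice junction, so several poly(A) sites within 1 last exon are not told apart.

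The last 30 bases of 10 annotated last exons are shown because differences described below concern these ends. At Srsf1 and Samhd1 the ends compared below share their final base, so this sequence is the same for each and only the splice junction differs. They are GENCODE M21 transcripts of GRCm38, matched to the files' GRCm39 ends by gene and last exon length, and are printed 5′ to 3′ with the last AATAAA, or where there is none the last ATTAAA, in capitals. Each name gives the gene and the length of the last exon in bases.
Srsf1, 4344: gtgAATAAAaagctgttaatttggaacctt
Hnrnpa2b1, 495: tatgatttAATAAAataattctaaaggaaa
Zfp207, 859: tccacgtAATAAAactcagttaccaataca
Samhd1, 1971: agactgcATTAAAaatggagattttaacag
Il27ra, 899: aataaattaataAATAAAtcttttttttct
Sik3 upstream, 886: agggaagttgaAATAAAatggttttcatgg
Sik3 downstream, 2126: AATAAAaacctgattatgtactaacgctga
Tuba1a, 1178: gttttaAATAAAatactccctgtcttaaaa
Tuba1b, 1138: gtctcaaagtaaaagctttaagaaaagagt
Mmd downstream, 1927: gttacttgggttgactccattgtctggagc

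The Tuba1b and Mmd ends held neither hexamer in this window. Among the 717 member ends with an annotated last exon that were searched, 303 or 42.3% held AATAAA or ATTAAA in their last 30 bases on the transcript strand. The share was 29.6% of 141767 GENCODE M21 transcripts and 44.1% of the 58797 coding ones. Within the members it was 64.7% of 249 most distal ends, 25.5% of 420 ends upstream of them and 14.4% of 222 ends annotated as retained-intron transcripts. The most distal ends and the coding ends, with 61.8% of 385, thus carried the hexamer more often than the upstream and retained-intron ends, as a description of the annotation and not of the libraries.

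Of the 440 genes, 325 had 2 ends, 92 had 3, 17 had 4 and 6 had 5 to 7. In 283 genes the last exons did not overlap each other, in 50 some of them did and in 47 all did. In the other 60 every end finished at the same base and only the splice junction before it differed. Where the ends finished at more than 1 base, the most upstream and the most downstream lay a median of 5423 bases apart, with quartiles of 2238 and 10809.5. Of the 1029 ends, 391 matched the last exon of a coding transcript, 226 that of a retained-intron transcript, 61 that of a processed transcript and 34 that of a transcript marked for nonsense-mediated decay, while 299 matched no annotated last exon length. In 535 ends the value reached 1 FPKM in every library, and 191 were not listed in at least 1 library.

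Members lay unevenly on the strands, with 337 genes on the minus strand and 103 on the plus strand. Of the genes with 5 FPKM of summed ends in every library, 20.7% of 1627 minus-strand genes and 7.03% of 1466 plus-strand genes were members. The cause was not tested. The exon and intron lengths of 379 members matched the gene that the files name, 32 matched another gene and 29 were undecided. Of all members, 33 loci joined 2 or more neighbouring genes, so a share there can compare messages of different genes, which is stated below at each such gene. In 345 genes the summed ends made up at least 80% of the level of the locus in every library.

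**Figure D1:**
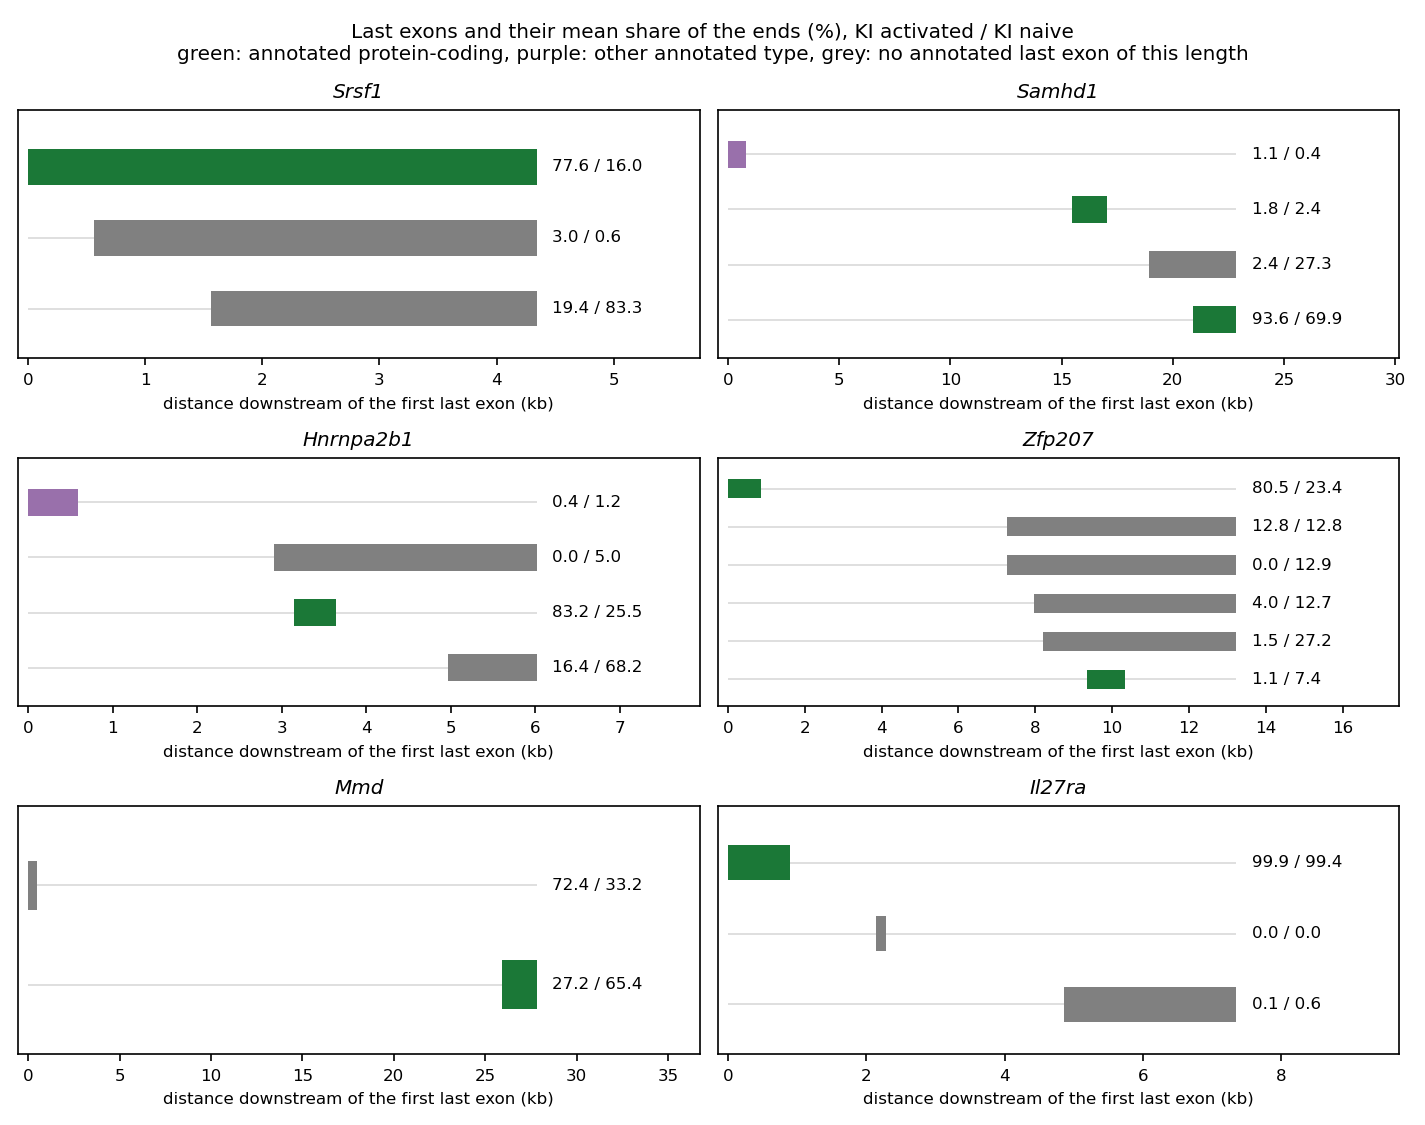
Last exons of Srsf1, Samhd1, Hnrnpa2b1, Zfp207, Mmd and Il27ra drawn 5′ to 3′, with the distance downstream in kb on the horizontal axis, coloured by annotated type and followed by the mean share in activated and naive KI cells. The Srsf1 ends share 1 final base and differ in length, while the ends of Mmd lie apart.

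Of 8 markers of CD4 T cells 6 were listed, with sums of 485 to 733 FPKM in activated KIKO, 1096 to 1277 FPKM in activated KI, 876 to 960 FPKM in naive KIKO and 1127 to 1401 FPKM in naive KI libraries. The second KIKO library of both states held myeloid transcripts, with 162 FPKM summed over the 5 markers in the activated one and 202 FPKM in the naive one, against 0 to 5.97 FPKM in the other 10 libraries. S100a9 made up 92.8 FPKM of the activated and 110 FPKM of the naive sum, and Itgam was the 1 marker of the 5 listed in no library. Of 4 NK markers 3 were listed, with sums of 2.19 to 9.83 FPKM in activated KIKO, 0.42 to 1.06 FPKM in activated KI, 9.6 to 21.1 FPKM in naive KIKO and 8.15 to 14.8 FPKM in naive KI libraries. Klrd1 made up most of the naive sums, Klrb1c was listed in none, and Gzma was listed only in the second KIKO libraries, at 7.57 FPKM in the activated and 8.01 FPKM in the naive one. Both CD8 T markers were listed, with sums of 8.67 to 10.3 FPKM in activated KIKO, 11.1 to 12.9 FPKM in activated KI, 12.6 to 16.1 FPKM in naive KIKO and 6.51 to 8.12 FPKM in naive KI libraries, nearly all of it Cd8b1. The markers of B cells and those of erythroid cells each summed to at most 2.78 FPKM in any library. The second naive KIKO library also listed fewer events, with 85319 lines against 100188 to 112679 in the other 11. The part of the transcripts of these other cell types in the results was not tested. Of the results that rest on the KIKO groups, the retained-intron counts are given below also without both second KIKO libraries. Calls are given with 1 library left out at a time. The other counts of ends or genes with no overlap and the strict switches are given only with all libraries.

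Activation of KI cells gave most of the ends that passed the test after adjustment. Counted without a test, 88 ends differed there by at least 10 points with no overlap between the libraries compared. This count was 81 for activation of KIKO cells, 64 between naive groups and 68 between activated groups. The splicing factor genes Srsf1 and Hnrnpa2b1, the mitotic checkpoint gene Zfp207 and Samhd1, which encodes a deoxynucleotide hydrolase, moved towards 1 annotated coding last exon, and Sik3, a kinase gene, gained an upstream one. In all, 94 ends of 54 genes passed the test, 9.14% of the ends and 12.3% of the genes, and 262 ends had an unadjusted p under 0.05. Of the 94, 37 ends in 22 genes, 3.6% of all ends, differed by at least 10 percentage points. The test was limma on the log2 ratio of an end to the other ends of its gene, with 1 FPKM added to each side and adjustment over all 1029 ends; a positive log2 ratio difference, given with its standard error, means a larger share in the first-named group. Since 1 FPKM is added, a change in the level of the whole gene can move the ratio of a low end, which made up over 50% of the difference in 15 of the 94. Of the 37 large differences none was of that kind, and 30 were also called when 5 percentage points were added to the shares instead, as were 43 of the 94. The 1122-base end at the Tuba1a locus, described below, is among the 94 and passed the filter only through the activated KI libraries, so it had to differ. Leaving out 1 library at a time gave 52 to 110 ends, with 61 without the first naive KI library, 62 without the second, 58 without the second activated KI library and 52 without the last.

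Srsf1 encodes an SR protein that binds exonic enhancers. Its 3 ends share their final base, and the 4344-base last exon at chr11:87940238-87944581 held 29.5, 56.4 and 45.7% of the summed ends in the activated KIKO libraries, 74.8, 89.1 and 69.0% in the activated KI libraries, 5.91, 31.0 and 10.9% in the naive KIKO libraries and 17.1, 16.3 and 14.7% in the naive KI libraries. The activated KI libraries lay above all others. The log2 ratio of this end differed by 4.06 ± 0.67 between activated and naive KI cells, adjusted p = 0.0066. The 2779-base exon with a splice junction farther downstream averaged 50.7 ± 8.39% in activated KIKO, 19.4 ± 10.3% in activated KI, 83.5 ± 13.8% in naive KIKO and 83.3 ± 1.09% in naive KI cells (SD, n = 3 each). The 4344-base end was the leading one in every activated KI library and the 2779-base end in every naive KI library. The summed ends averaged 86.8 FPKM in activated KI and 37.0 FPKM in naive KI cells.

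Hnrnpa2b1 encodes an RNA-binding protein of the heterogeneous nuclear ribonucleoproteins. Its 495-base coding end at chr6:51439740-51440234 held 80.8, 67.4 and 58.6% in activated KIKO, 81.1, 79.5 and 89.0% in activated KI, 13.0, 22.8 and 40.5% in naive KIKO and 42.0, 10.0 and 24.5% in naive KI libraries. Both activated groups lay above both naive groups. The log2 ratio differed by 4.08 ± 0.76 with activation in KI cells, adjusted p = 0.0087, and by 2.87 in KIKO cells, adjusted p = 0.12. The most downstream end, of 1048 bases and without an annotated match, averaged 16.4 ± 5.01% in activated KI and 68.2 ± 24.1% in naive KI cells, adjusted p = 0.026. That downstream call was lost without the second or the last naive KI library or any 1 activated KI library, with adjusted p of 0.054 to 0.1.

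Zfp207, whose protein binds spindle microtubules and the checkpoint protein Bub3, had 6 ends over 12374 bases. The most upstream, of 859 bases at chr11:80286216-80287074, held 22.4, 23.8 and 33.5% in activated KIKO, 81.7, 65.8 and 93.9% in activated KI, 7.5, 20.9 and 18.2% in naive KIKO and 17.1, 4.87 and 48.1% in naive KI libraries. It was the leading end in the activated KI libraries and the range among naive KI libraries was wide. The log2 ratio difference with activation in KI cells was 4.14 ± 0.89, adjusted p = 0.017, and it was lost without the first or the second naive or the last activated KI library, with adjusted p of 0.053 to 0.07. Downstream of it 4 ends share 1 final base, and the 5022-base one among these averaged 1.46 ± 1.06% in activated KI and 27.2 ± 9.28% in naive KI cells, adjusted p = 0.028. The call at the 5022-base end was lost without the second or the last naive KI library or any 1 activated KI library, with adjusted p of 0.054 to 0.11.

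Samhd1 is a member in which both genotypes passed the test. The 1971-base coding last exon at chr2:156939453-156941423 held 84.5, 84.0 and 85.5% in activated KIKO, 94.9, 95.0 and 91.1% in activated KI, 47.4, 64.9 and 56.6% in naive KIKO and 67.8, 72.3 and 69.5% in naive KI libraries. Within each genotype the activated libraries lay above the naive ones, and within each state the KIKO libraries lay below the KI ones. The log2 ratio difference with activation was 2.59 ± 0.35 in KI, adjusted p = 0.0026, and 2.07 ± 0.35 in KIKO cells, adjusted p = 0.036, while KIKO against KI in activated cells gave -1.35 ± 0.35, adjusted p = 0.077. The call in KIKO cells was lost when any 1 of 10 libraries was left out, with adjusted p of 0.05 to 0.18, and was kept without the second naive KIKO or the last activated KI library. Summing the ends that finish within 50 bases of each other, which joins this end with the 3911-base one, ended both calls, with log2 ratio differences of -0.54 in KI, adjusted p = 0.49, and -0.018 in KIKO cells, adjusted p = 0.99. A 3911-base exon with the same final base and an earlier junction held 12.6 ± 0.775% in activated KIKO, 2.42 ± 2.19% in activated KI, 40.8 ± 8.71% in naive KIKO and 27.3 ± 2.26% in naive KI cells. The summed ends averaged 321, 156, 415 and 259 FPKM in the same order of groups.

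Sik3 and Mmd, chosen after their values were seen, show a gain of the upstream end. Sik3 encodes a salt-inducible kinase, and its upstream 886-base end at chr9:46113298-46114183 held 18.5, 12.1 and 13.9% in activated KIKO, 24.9, 30.9 and 32.1% in activated KI, 14.5, 2.87 and 9.44% in naive KIKO and 9.96, 9.82 and 9.54% in naive KI libraries. The activated KI libraries lay above the other 9, with a log2 ratio difference of 1.58 ± 0.35 against naive KI, adjusted p = 0.018, a call lost without the first or the second naive or the second or the last activated KI library, with adjusted p of 0.053 to 0.08. Mmd encodes a membrane protein of the progestin and adiponectin receptor family. Its downstream 1927-base end averaged 24.1 ± 3.53% in activated KIKO, 27.2 ± 1.02% in activated KI, 43.2 ± 13.5% in naive KIKO and 65.4 ± 12.2% in naive KI cells, with adjusted p = 0.0091 in KI. The leading end was the upstream one in all activated KI libraries and the downstream one in all naive KI libraries.

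Cd48 encodes a surface ligand of CD2 and of the receptor 2B4, and all 3 of its ends finish at 1 base. The shortest last exon, of 593 bases, averaged 63.7 ± 7.28% in activated KIKO, 83.7 ± 6.38% in activated KI, 32.2 ± 6.56% in naive KIKO and 55.0 ± 9.14% in naive KI cells. Activated libraries lay above all naive ones of the same genotype, with a log2 ratio difference of 1.92 ± 0.40 in KI, adjusted p = 0.015, and 1.69 in KIKO cells, adjusted p = 0.11. The KI call was lost without the first or the second naive or the last activated KI library, with adjusted p of 0.053 to 0.06.

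Smaller differences were called in genes of the proteasome. The main end of Psma3, an alpha subunit of the 20S core, held 98.1, 98.6 and 97.0% in activated KIKO, 97.6, 99.1 and 99.5% in activated KI, 95.0, 95.7 and 95.2% in naive KIKO and 97.1, 96.9 and 97.2% in naive KI libraries, adjusted p = 0.041 in KI. The main end of Usp14, a deubiquitinase bound to the proteasome, averaged 97.5 ± 1.47% in activated KI and 88.6 ± 6.84% in naive KI cells, adjusted p = 0.035. Neither was called when 5 percentage points were added to the shares, with adjusted p = 0.29 for Psma3 and 0.18 for Usp14. The Psma3 call was lost when 1 of 7 libraries was left out, all but the first and second naive KIKO, the second and last activated KIKO and the first activated KI library, with adjusted p of 0.056 to 0.15. The Usp14 call was lost without any 1 activated KI library, the first or the last naive KI library or the last activated KIKO library, with adjusted p of 0.05 to 0.13.

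Several of the largest differences compare neighbouring genes joined in 1 locus. At the Tuba1a locus, where 2 alpha-tubulin genes lie 18412 bases apart, the Tuba1a end at chr15:98847718-98848895 held 25.9, 24.4 and 31.5% in activated KIKO, 11.1, 13.0 and 12.9% in activated KI, 47.7, 46.4 and 47.4% in naive KIKO and 40.2, 40.8 and 40.2% in naive KI libraries. The rest belonged to ends at Tuba1b, and the groups did not overlap in any of the 4 comparisons of 2 groups. The log2 ratio of the Tuba1a end differed by -2.26 ± 0.27 with activation in KI cells, adjusted p = 0.0015, and by 1.41 ± 0.27 between KIKO and KI activated cells, adjusted p = 0.047, a call lost when any 1 of the 12 libraries was left out, with adjusted p of 0.051 to 0.16. At Mxd4, a Max-binding antagonist of Myc whose locus also matches Poln, the Mxd4 coding end averaged 48.1 ± 6.06% in activated KIKO, 27.7 ± 2.89% in activated KI, 60.4 ± 1.61% in naive KIKO and 60.5 ± 2.59% in naive KI cells, adjusted p = 0.0026 in KI.

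At the locus that joins N4bp2l2 and N4bp2l1, the 7344-base N4bp2l2 end held 32.1, 37.4 and 28.2% in activated KIKO, 40.5, 38.3 and 38.7% in activated KI, 20.7, 23.9 and 14.2% in naive KIKO and 7.74, 3.36 and 5.71% in naive KI libraries. Its log2 ratio difference with activation in KI cells was 3.14 ± 0.32, adjusted p = 9e-04. The naive KIKO libraries lay above the naive KI ones and the activated KIKO libraries below the activated KI ones. Pspc1, a paraspeckle protein gene, shares its locus with Gm16973, and Ms4a6b, which encodes a membrane-spanning protein, with Gm8369. The Pspc1 end of 2812 bases averaged 92.0 ± 2.99% in activated KI and 44.5 ± 14.6% in naive KI cells, adjusted p = 0.0087. The Ms4a6b end of 1767 bases averaged 79.4 ± 3.83% in activated KI and 50.1 ± 13.7% in naive KI cells, adjusted p = 0.035, and this call was lost without the first or the second naive KI library, any 1 activated KI library or the last activated KIKO library, with adjusted p of 0.05 to 0.11.

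**Figure D2:**
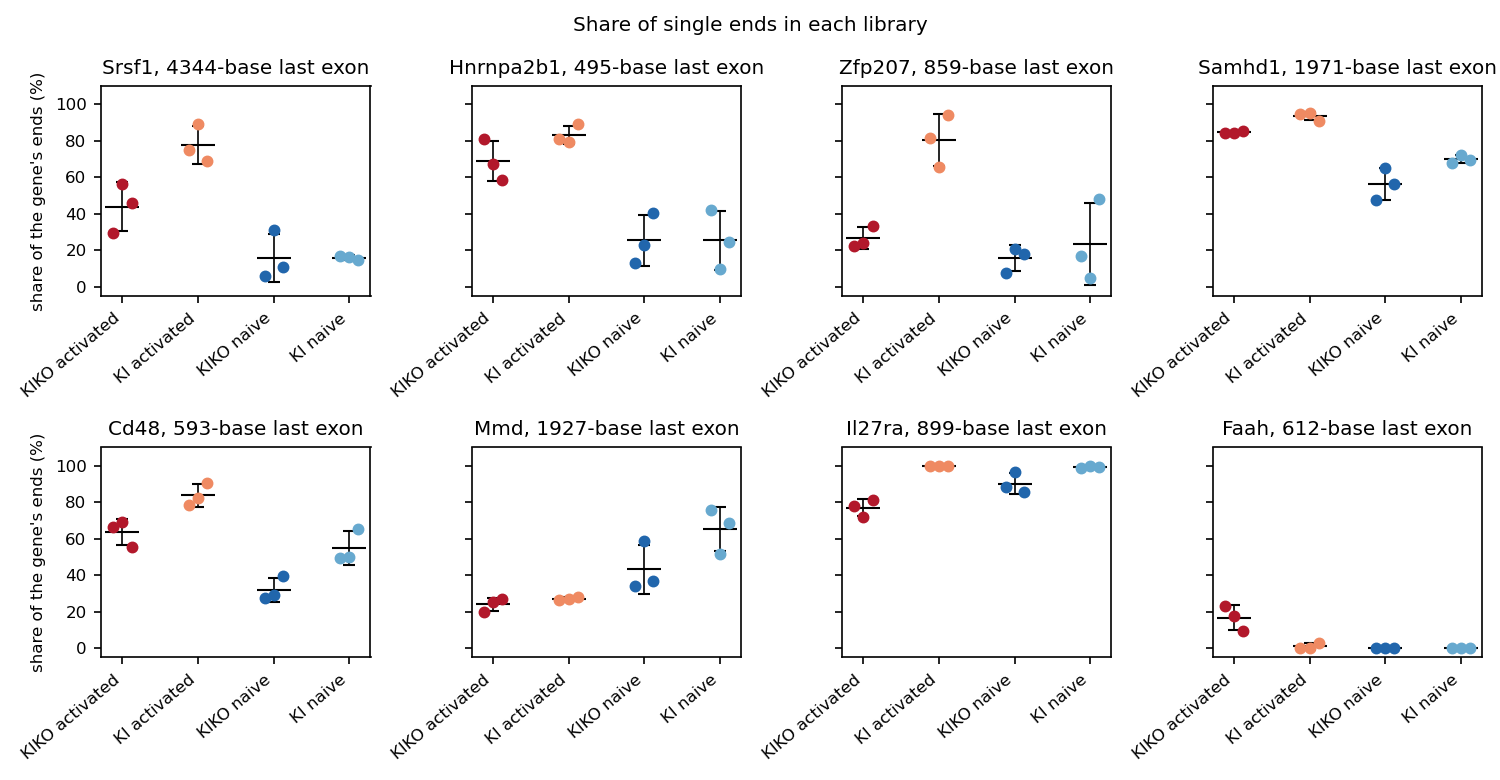
Share of the named end in each library as a percentage of the summed ends of its gene, with the 3 libraries of a group as points and the mean and SD as a line with bars. In Srsf1 the activated KI libraries, from 69.0 to 89.1%, lie above all others, and in Il27ra the activated KIKO libraries, from 71.8 to 81.0%, lie below all others.

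Activation of KIKO cells gave 4 called ends in 3 genes, 0.389% of the ends and 0.682% of the genes, with 160 ends at an unadjusted p under 0.05. These were the Samhd1 end above, a 612-base end of Faah, the gene of fatty acid amide hydrolase, and both ends of a locus that joins Slc35a2, a Golgi transporter of UDP-galactose, and Pim2, a serine/threonine kinase gene, named for its call. The upstream end of the Slc35a2 locus matches a retained-intron transcript of Pim2. It held 4.06, 4.05 and 5.63% in activated KIKO, 2.3, 2.09 and 1.91% in activated KI, 6.07, 22.2 and 8.76% in naive KIKO and 6.18, 2.45 and 2.58% in naive KI libraries, and the log2 ratio difference in KIKO cells was -1.92 ± 0.29, adjusted p = 0.02 but 0.38 with the offset of 5 percentage points. The summed ends of Slc35a2 averaged 52.2 FPKM in activated KIKO and 8.26 FPKM in naive KIKO cells, and the call was lost without any 1 activated KIKO library, with adjusted p of 0.056 to 0.14. The activated KIKO libraries lay below the naive KIKO ones, of which the second was the highest. Of the 4 ends, 2 or 0.194% of all ends differed by at least 10 points. The Faah end held 23.3, 17.9 and 9.37% in activated KIKO libraries, 0, 0 and 3.14% in activated KI libraries and was listed in no naive library. It entered the set only through the activated KIKO libraries, so it had to differ and its adjusted p = 0.019 supports nothing further. The Faah call was lost without the first or the second activated KIKO library, with adjusted p of 0.13. Leaving out 1 library gave 0 to 8 ends, with 0 without the first or the second activated KIKO library, 1 without the last and 8 without the last naive KIKO library. Counted without a test, 88 ends in KI, 8.55%, and 81 in KIKO, 7.87%, differed by at least 10 points with no overlap between activated and naive libraries. Of the differences between the responses of the genotypes, 1 end passed the test.

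That end was the 1122-base end at the Tuba1a locus, which overlaps the Tuba1b end. It held 5.73, 7.24 and 7.27% in the activated KI libraries, and the other 9 listed none of it. The interaction was -5.03 ± 0.36 on the log2 scale, adjusted p = 5.4e-05, and the interaction calls came to 0.0972% of the ends, with 87 ends at an unadjusted p under 0.05. Since this end entered the set only through the activated KI libraries, it too had to differ.

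KIKO against KI in activated cells gave 8 called ends in 6 genes, 0.777% of the ends and 1.36% of the genes, with 168 ends at an unadjusted p under 0.05. Of the 8, 2 passed the filter only through 1 of the groups compared and had to differ, namely the Faah end in activated KIKO and the 1122-base end at the Tuba1a locus in activated KI cells. Of the 8, 6 or 0.583% of all ends differed by at least 10 points, and counted without a test 68 ends, 6.61%, in 45 genes, 10.2%, did so with no overlap. Il27ra, which encodes the ligand-specific chain of the interleukin 27 receptor, moved away from its annotated last exon. The 899-base coding end at chr8:84756923-84757821 held 77.8, 71.8 and 81.0% in activated KIKO, 100, 99.6 and 100% in activated KI, 88.4, 96.7 and 85.5% in naive KIKO and 98.6, 100 and 99.6% in naive KI libraries. In both states every KIKO library lay below every KI library. The log2 ratio difference was -3.29 ± 0.38 in activated cells, adjusted p = 0.0029, a call kept in all 22 alternative fits, while the naive cells gave an adjusted p = 0.091. The remainder lay in downstream ends without an annotated match, of which the 2488-base one averaged 12.6 ± 4.49% in activated KIKO and 0.12 ± 0.207% in activated KI cells, adjusted p = 0.031. The summed ends of Il27ra averaged 19.4 FPKM in activated KIKO and 28.7 FPKM in activated KI cells.

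Gimap4 is a GTPase gene of the Gimap family. Its 1284-base end held 40.9, 52.6 and 47.7% in activated KIKO and 19.9, 14.5 and 14.2% in activated KI libraries. Its log2 ratio difference was 1.87 ± 0.30, adjusted p = 0.029. The ends of this gene made up as little as 9.44% of the level of the locus, so the shares describe a small part of its transcripts. The Gimap4 and 2488-base Il27ra ends each lost the call without any 1 of the 6 KI libraries and without the second or the last activated KIKO library, and the Il27ra end also without the first, with adjusted p of 0.058 to 0.091 for Gimap4 and 0.057 to 0.091 for Il27ra.

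The other calls between the activated groups lay in joined or mislabelled loci, or in the Faah end above. The 1759-base end that matches Gm16973 at the Pspc1 locus held 33.1, 19.5 and 40.9% in activated KIKO and 7.78, 6.1 and 2.44% in activated KI libraries, adjusted p = 0.05 after rounding and just under the threshold. At the locus that the files name Renbp, whose exon lengths match Arhgap4 and L1cam, a 1801-base end averaged 3.56 ± 0.525% in activated KIKO and 1.31 ± 0.381% in activated KI cells, adjusted p = 0.047. The call at Renbp was lost without any 1 of the 12 libraries, with adjusted p of 0.051 to 0.16, and that at Pspc1 without any 1 but the first naive KIKO library, with adjusted p of 0.051 to 0.16. Between the activated groups the Faah call, adjusted p = 0.036, was lost without any 1 of 9 libraries, with adjusted p of 0.051 to 0.12. The call was kept without the first naive KIKO, the last activated KIKO or the last activated KI library. Summing the ends that finish within 50 bases of each other gave -0.61 on the log2 scale, adjusted p = 0.51, so the summed end was not called. Leaving out 1 library gave 2 to 8 called ends between the activated groups, with 2 without any 1 naive KI, the second activated KIKO or the first activated KI library, 3 without the last activated KI library, and 4 without the second activated KI or the last activated KIKO library. It gave 5 without the first activated KIKO or the last naive KIKO library.

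Between naive KIKO and naive KI cells no end was called, 0% of 1029, and the lowest adjusted p among the ends named here was 0.072. The unadjusted p was under 0.05 for 139 ends. Counted without a test, 64 ends, 6.22%, in 42 genes, 9.55%, differed by at least 10 points with no overlap. Cenpt, which encodes a kinetochore protein, was among these, and it was chosen after its values were seen. Its summed ends averaged 9.97 FPKM in naive KIKO and 7.99 FPKM in naive KI cells. Both lie under the 10 FPKM asked of genes named by rule. Its 506-base retained-intron end held 48.4, 65.1 and 33.9% in naive KIKO and 6.08, 9.96 and 4.3% in naive KI libraries, adjusted p = 0.091. Activated cells showed 28.9, 12.1 and 40.4% in KIKO and 4.11, 11.8 and 4.03% in KI libraries for the same end, so the KIKO libraries lay above the KI ones in both states. Leaving out 1 library gave up to 6 called ends, reached without the last naive KIKO library. It gave 3 without the first or the second naive KIKO library and 2 without the first naive KI library.

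A switch in the strict sense, with 1 leading end in all 3 libraries of a group and another in all 3 of the other, was rare. It occurred in 5 genes for activation of KI cells, 1.14% of the 440, namely Srsf1, Mmd, Rpl30, Mxd4 and N4bp2l2. For activation of KIKO cells it occurred in 1 gene, 0.227%, namely Ndufa9, a gene of respiratory complex I. Between naive KIKO and KI cells it occurred in Zfp511 and Hcst, 0.455%, and between activated ones in Gm23130, Mat2a and Hras, 0.682%. Of all these genes Srsf1, Mmd, Mxd4 and N4bp2l2 had a called end at the switch and the others had none. Mxd4 and N4bp2l2 lie in joined loci, and the lengths at Gm23130 match another gene. The leading ends of Hcst finish 1 base apart. In Ndufa9 the downstream end spanned 0 to 95.2% among naive KI and 0 to 96.7% among activated KI libraries. By the group means alone, the leading end differed in 28 genes, 6.36%, for activation of KI cells, 30, 6.82%, for activation of KIKO cells, 33, 7.5%, between naive KIKO and KI cells and 25, 5.68%, between activated ones. It came with a called end in 8 genes, 1.82%, for activation of KI cells, in 1 gene, 0.227%, between activated KIKO and KI cells and in none of the others.

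Mat2a encodes the enzyme that makes S-adenosylmethionine. Its annotated 2316-base last exon held 50.1, 53.1 and 47.0% in activated KIKO and 28.7, 28.1 and 25.2% in activated KI libraries, and the overlapping 3421-base end that runs farther downstream held 46.0, 39.2 and 46.1% in activated KIKO and 65.0, 63.0 and 68.5% in activated KI libraries. The groups did not overlap at either end. The adjusted p was 0.06 for the annotated end and 0.077 for the longer one, so neither was called.

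Some switches were all-or-none and differed among libraries of 1 group. The 2 ends of Rpl30, a protein gene of the large ribosomal subunit, share their final base, and the 858-base one held 0, 100 and 100% in activated KIKO, 100, 99.8 and 99.3% in activated KI, 99.9, 99.6 and 0% in naive KIKO and 0, 0 and 0% in naive KI libraries, adjusted p = 0.068 in KI. In Rps3, a protein gene of the small subunit, the 1056-base coding end held 4.54, 99.8 and 99.8% in activated KIKO, 99.8, 99.9 and 99.9% in activated KI, 4.3, 3.39 and 99.9% in naive KIKO and 99.9, 100 and 100% in naive KI libraries. The share of an end spanned at least 50 percentage points among the 3 libraries of a group in 21 genes of activated KIKO, 19 of activated KI, 31 of naive KIKO and 20 of naive KI cells. Whether such spans come from the RNA or from the assembly of transcripts was not tested.

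Distal use was described for the 380 genes whose ends finish at 2 or more bases. With activation of KI cells the most distal position gained share in 29 genes, 7.63%, and lost share in 18, 4.74%, by the test. Of those that differed by at least 10 points, 6 gained and 12 lost. Counted without a test, 14 genes, 3.68%, gained and 19 lost at least 10 points with no overlap in KI cells, and 16 gained and 14, 3.68%, lost in KIKO cells. Among the calls in KI cells the split turned with the size of the difference. The median distal share averaged 89.6% in naive KI libraries, so many genes had no room to gain 10 points but could lose them. The split at 10 points is therefore no measure of direction. With the offset of 5 percentage points the distal calls in KI cells came to 20 in place of 47. In activated against naive KIKO cells 1 gene gained, 0.263%, and none lost, with 65 at an unadjusted p under 0.05. The difference between these responses was called in no gene, with 36 at an unadjusted p under 0.05.

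Between activated KIKO and activated KI cells 7 genes gained distal share, 1.84%, and 6 lost it, 1.58%. At loci of 1 matched gene alone, the calls came to 1 in place of 13. The calls in KI cells came to 30 in place of 47 there. The joined loci of Tuba1a, Mxd4 and Pspc1 were called between the activated groups, each with adjusted p = 0.042 in the distal test. At such loci the distal share can compare messages of different genes. Leaving out any 1 library gave 0 to 4 in place of these 13 calls, with 4 without the first naive KIKO or the second naive KI library and fewer without each of the others. The calls in KI cells came to 29 without the first naive KI library, 30 without the first activated KI library and 26 without the last. Between the naive groups none was called, with 47 at an unadjusted p under 0.05. The mean distal share over the 380 genes was 73.2 ± 0.692% in activated KIKO, 72.9 ± 0.435% in activated KI, 72.2 ± 0.366% in naive KIKO and 73.4 ± 0.524% in naive KI cells (SD, n = 3 each). The library means lay between 71.9 and 74.0%. By strand, the calls with activation of KI cells were 8 gains and 8 losses among 84 plus-strand genes and 21 gains and 10 losses among 296 minus-strand genes.

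**Figure D3:**
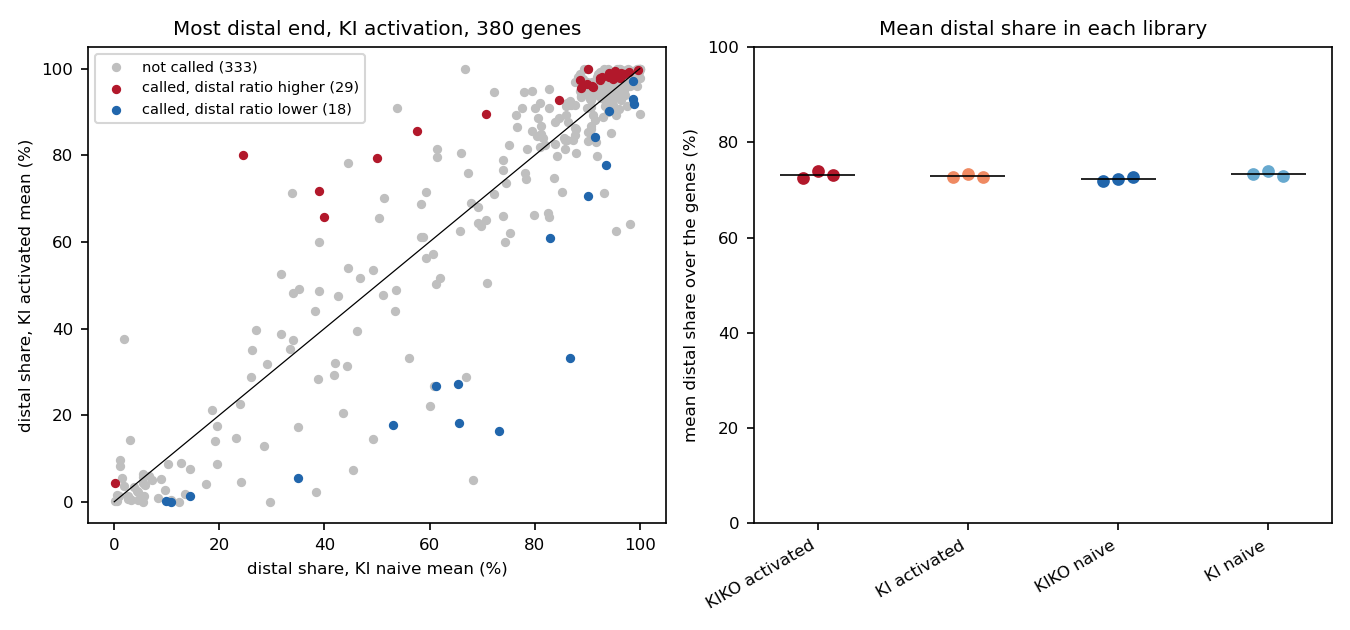
Mean share of the most distal end in each group for the genes with ends at 2 or more bases, activated against naive KI cells, with called genes marked, and the mean over these genes in each library. The library means lie between 71.9 and 74.0% in all 4 groups.

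Ends annotated as retained-intron transcripts stop within or after an intron that coding transcripts remove. Of the members, 111 genes had such an end beside a coding end. In activated KIKO against activated KI cells the retained-intron share was higher with no overlap in 30 of the 111 genes, 27.0%, and lower in 6, 5.41%, while over all 1029 ends 12.5% were higher and 11.3% lower with no overlap. In naive KIKO against naive KI cells it was higher in 20 genes and lower in 6, 5.41%, against 8.65% and 7.87% of all ends. With activation it was higher in 11, 9.91%, and lower in 31 genes, 27.9%, of KI cells, against 11.9% and 12.5% of all ends. In KIKO cells it was higher in 5, 4.50%, and lower in 18 genes, 16.2%, against 9.62% and 9.72%. These are counts without a test, and both sets of comparisons share groups. Within a gene, a rise in the share of an end lowers that of the others. The higher and lower percentages over all ends therefore tend to be alike by construction. They also count single ends, while the retained-intron counts are of genes. They cannot show whether the uneven split is particular to retained-intron ends, and this was not tested.

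Of the 130 retained-intron ends of these genes, 3 were called higher and 9 lower with activation of KI cells, 9.23% of them against 9.14% of all ends, and none was called in the other comparisons. The median share over the 111 genes was 5.59 ± 0.732% in activated KIKO, 2.95 ± 0.571% in activated KI, 6.18 ± 0.896% in naive KIKO and 5.47 ± 1.70% in naive KI cells (SD, n = 3 libraries). The 3 activated KI libraries, at 3.37, 3.18 and 2.30%, lay below the other 9. Without the second KIKO library of each state the counts of genes with no overlap were 41 higher and 9 lower in the activated comparison, against 18.6% and 16.3% of all 1029 ends with the same libraries left out. They were 28 and 8 in the naive comparison, against 14.9% and 13.6%, and 12 and 36 for activation of KIKO cells, against 19.9% and 20.2%.

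Examples, chosen after their values were seen, span small and large shares. In Cd3e, which encodes a signalling chain of the T cell receptor complex, the retained-intron end held 4.26, 4.25 and 4.89% in activated KIKO, 2.97, 2.66 and 2.61% in activated KI, 7.18, 8.06 and 7.36% in naive KIKO and 5.45, 3.77 and 4.2% in naive KI libraries. The KIKO libraries lay above the KI ones in each state and the activated below the naive ones in each genotype, and the end was called in no comparison. In Pcgf6, a Polycomb group gene, these ends averaged 21.1% in activated KIKO and 8.32% in activated KI cells. The 3 KIKO libraries lay above the 3 KI libraries. In Metrn, which encodes the secreted protein meteorin, they held 80.4, 86.6 and 81.6% in activated KIKO and 62.5, 62.8 and 57.3% in activated KI libraries. In Cdipt, the phosphatidylinositol synthase gene, the direction was opposite, with 0.928, 0.724 and 0.457% in activated KIKO and 6.96, 8.33 and 5.64% in activated KI libraries. This Cdipt end was called with activation of KI cells, with a log2 ratio difference of 1.81 ± 0.31 and adjusted p = 0.0066, its naive KI libraries being at 0.74, 1.36 and 1.76%.

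**Figure D4:**
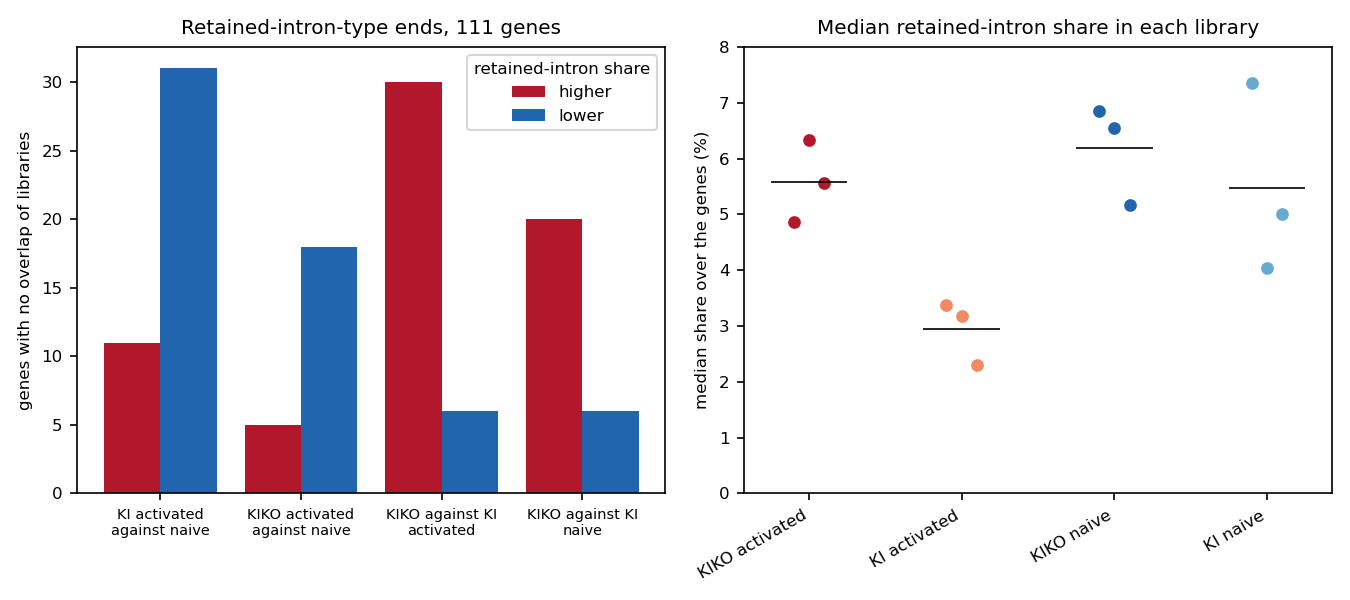
Left, number of the 111 genes whose retained-intron share was higher or lower with no overlap between the libraries compared. Right, median retained-intron share in each library as a percentage, with the group mean as a line; the activated KI libraries lie lowest, at 2.30 to 3.37%.

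Members of 7 gene lists that fit the tissue were few. Of 30 splicing factors 7 were members and 2 of these, Srsf1 and Hnrnpa2b1, had a called end with activation of KI cells. Of 51 proteasome and ubiquitin genes 5 were members and 2 were called, and of 33 T cell transcription factors 3 were members and 1, Mxd4, was called. None of the 6 members among 34 factors of 3′ end processing, the 3 among 37 genes of T cell receptor signalling, the 1 among 22 genes known for alternative ends or the 1 among 15 genes of p53 and cell death was called there. Over all members 12.3% of genes were called in this comparison. By the test on single ends, no member of any of the lists had a call in the other 4 comparisons. By the test of the most distal position, Mxd4 was called between activated KIKO and KI cells, adjusted p = 0.042.

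Other members of the lists were not called. Calm2, a calmodulin gene, held 59.0, 74.1 and 70.9% at its most distal 644-base end in activated KIKO, 69.1, 69.2 and 68.3% in activated KI, 72.5, 73.3 and 50.2% in naive KIKO and 68.0, 69.1 and 66.5% in naive KI libraries. The KI libraries spanned few points and the KIKO libraries more. The 523-base last exon of Trp53, the p53 gene, held 82.6, 90.2 and 89.2% in activated KIKO, 89.3, 88.4 and 89.4% in activated KI, 79.1, 77.4 and 84.5% in naive KIKO and 89.8, 91.1 and 82.6% in naive KI libraries. The naive groups overlapped. Hnrnpa1, an RNA-binding protein gene, held 17.5 ± 10.7% at its 148-base downstream end in activated KIKO, 14.4 ± 2.81% in activated KI, 17.1 ± 13.2% in naive KIKO and 49.3 ± 14.0% in naive KI cells, adjusted p = 0.084 with activation in KI.

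The machinery that makes transcript ends was itself measured as levels of loci, on log2(FPKM + 1). Of 34 factors of 3′ end processing 31 were tested. With activation of KI cells 18 were higher and 5 lower, against 32.2% higher and 29.5% lower among all 9743 loci tested, and in KIKO cells 12 were higher and 3 lower, against 25.1% and 22.2%. In activated KIKO against activated KI cells 5 were higher and 7 lower, against 20.7% and 19.3%, and in naive cells 4 were higher and 1 lower, against 6.46% and 3.9%. The interaction was called higher in 1 and lower in 6, against 8.99% and 11.6%.

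Pabpc4, a cytoplasmic poly(A)-binding protein, averaged 28.9 ± 3.43 FPKM in activated KIKO, 73.8 ± 19.1 FPKM in activated KI, 15.3 ± 0.814 FPKM in naive KIKO and 16.7 ± 1.16 FPKM in naive KI cells. Its log2 difference between activated KIKO and KI cells was -1.29 ± 0.16, adjusted p = 6.75e-05. Cpsf3, the endonuclease that cuts the transcript, averaged 38.0 ± 1.73 FPKM in activated KIKO and 60.4 ± 3.99 FPKM in activated KI cells, a log2 difference of -0.65 ± 0.09. Cpsf6, a subunit of cleavage factor I that favours distal sites in other mammalian cells, averaged 16.2 ± 0.419 and 23.1 ± 2.36 FPKM in these groups, a log2 difference of -0.48 ± 0.10, and Snrpa, a U1 protein, 61.3 ± 12.8 and 103 ± 2.21 FPKM, a log2 difference of -0.76 ± 0.13. Cdk13, a kinase of transcription elongation, was higher instead, with 19.5 ± 1.39 FPKM in activated KIKO and 12.2 ± 1.42 FPKM in activated KI cells, a log2 difference of 0.64 ± 0.10. All 5 differences passed the test over all loci. The other factors called higher in activated KIKO cells were Cpsf7 at 0.40 ± 0.11, Fip1l1 at 0.41 ± 0.11, Cdk12 at 0.59 ± 0.12 and Zc3h14 at 0.32 ± 0.09. The others called lower were Cpsf2 at -0.41 ± 0.11, Elavl1 at -0.34 ± 0.10 and Hnrnph1 at -0.92 ± 0.16. Nudt21, at 0.11 ± 0.09, was not called, with an adjusted p = 0.36 in the same test. No relation between these levels and the shares of ends was tested.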

How the data were processed

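RNA was measured in 12 mouse libraries, 3 per group. Per the labels' protocols, poly(A) RNA was taken from 15 ng of total RNA and stranded libraries were made. Per the submitters' processing notes, the tools were FastQC 0.11.9 for read quality, cutadapt 2.9 for trimming and HISAT2 2.2.0 for alignment. The notes name GRCm39 and mm10, and the files' coordinates are GRCm39. The values are FPKM of transcript events as deposited by the authors, and which program made them is not stated in the sources used. FPKM hold no read numbers, so depth is unknown and no counting interval is given. Events absent from a library were taken as 0, duplicate lines were dropped, and only transcript ends were kept.

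From these, shares and the log2 ratio of each end to the other ends (pseudocount 1 FPKM on both) were computed with Python 3.11.15, pandas 2.3.3 and numpy 2.4.6, and figures with matplotlib 3.10.9. The ratios of 1029 ends were tested with limma 3.58.1 in R 4.3.3, with 1 mean per group over 12 libraries, empirical Bayes with a trend, two-sided, and Benjamini-Hochberg adjustment, called under 0.05. The most distal position was tested in the same way over 380 genes, and levels over 9743 loci, where a level is the largest of the summed starts, the summed ends and the largest event. The fit was also run on simulated data with independent normal noise. All-or-none shares within a group, as seen at Rpl30 and Rps3, were not modelled, so that run cannot judge the fit for such ends. Ends were typed by last exon length in GENCODE M21 (GRCm38), lengths only. Ends on chromosome 18 were left out of the hexamer search.

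The members and lists were chosen with earlier results of these data known. Genes were named by rule: the 10 with the largest share difference per comparison (6 for the interaction) among called ends with no overlap and a gene sum of at least 10 FPKM, and called list members; other genes were chosen after their values were seen. Alternatives were pseudocounts of 0.1 and 5, no filter on ends, a sum of 10 FPKM, linear shares, no trend, merged ends, a replicate block and each library left out. Added after seeing the data were an offset of 5 percentage points, an 80% coverage limit and loci of 1 matched gene.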

Additional observations from a re-analysis of the deposited data

Results flagged for a closer look

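The response to activation differed between the genotypes at the 1122-base end of the Tuba1a locus, with an interaction of -5.03 on the log2 scale that passed the test. The end was listed in the activated KI libraries only, and these alone brought it into the set.

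The 996-base end at the Ms4a6b locus was higher in activated than in naive KIKO libraries and lower in activated than in naive KI libraries, with no overlap in either genotype. The difference between these changes was 7.24 percentage points and was not tested beyond the interaction fit, which did not call it. The share averaged 1.66% in activated KIKO, 3.6% in activated KI, 0.513% in naive KIKO and 9.69% in naive KI cells.

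The 7344-base end at the N4bp2l2 locus was lower in KIKO than in KI cells after activation and higher in naive cells, with no overlap in either state. The difference of these differences was -20.6 percentage points, and the interaction fit gave an adjusted p = 0.17.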

How the results depend on the processing

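Counts of calls moved with how low ends were treated. The called ends with activation of KI cells (94) came to 36 with a pseudocount of 0.1 FPKM, 268 with 5, 1024 with no filter on ends, 34 on linear shares and 43 with the offset of 5 percentage points, and to 52 to 110 with 1 library left out. For activation of KIKO cells (4) they came to 1, 103, 390 and 15 under the first 4 of these, 2 with a sum of 10 FPKM, with merged ends or with 80% coverage, 1 at loci of 1 matched gene, and 0 to 8 with 1 library left out. Between activated KIKO and KI cells (8) they came to 98 with a pseudocount of 5, 406 unfiltered, 24 with a sum of 10 FPKM, 13 on linear shares, 25 merged, 14 with the offset, 3 with 80% coverage, 4 at loci of 1 gene and 2 to 8 with 1 library left out. Between naive groups (0) they came to 12 with a pseudocount of 5, 9 unfiltered, 2 on linear shares, 1 merged and 0 to 6 with 1 library left out. For the interaction (1) they came to 6, 2, 0 merged, 0 at loci of 1 gene and 1 to 3 with 1 library left out. Distal calls in KI cells (47) came to 19, 109, 302, 12 on linear shares, 30 with a sum of 10 FPKM, 20 with the offset, 30 at loci of 1 gene and 26 to 52 with 1 library left out. In KIKO cells (1) they came to 0, 46, 108 and 0 with a sum of 10 FPKM, the offset, 80% coverage or 1 matched gene, and 0 to 2 with 1 library left out. Between activated groups (13) they came to 2, 41, 124, 5 on linear shares, 6 with the offset, 1 at loci of 1 gene and 0 to 4 with 1 library left out. Between naive groups (0) they came to 3, 1, 1 on linear shares and 0 to 3, and for the interaction (0) to 3 with a pseudocount of 5 and 0 to 1. Merging sums the ends that finish within 50 bases of each other. For activation at the Samhd1 end it gave log2 ratio differences of -0.54 in KI cells, adjusted p = 0.49, and -0.018 in KIKO cells, adjusted p = 0.99. Between activated groups at the Faah end it gave -0.61, adjusted p = 0.51.

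With the replicate number as a block, the called ends came to 76 and 0 for activation of KI and KIKO cells and 2 between activated groups, and distal calls to 31, 0 and 0. The end shares of same-numbered libraries did not deviate together in every pair, so the main fit did not pair them. For activation of KI cells same-numbered pairs correlated at 0.0043, 0.052 and 0.18, and different-numbered ones at -0.16 to 0.091. Between activated groups the values were 0.071, 0.061 and 0.080, against -0.062 to -0.0090. Same-numbered pairs gave -0.11, 0.018 and -0.10 for activation of KIKO cells and 0.20, 0.18 and -0.12 between naive groups. The second KIKO libraries of both states, however, shared myeloid transcripts and Gzma. Whether same-numbered KIKO samples have a common origin is not stated in the labels and was not tested, so the calls without the block treat them as unpaired. Of 46 calls at named ends, 34 kept direction and side of the threshold under the block and 12 fell short of it. Depth is unknown and limits every value.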
